A study of Homo sapiens with 47 samples.

Results

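EPCAM-detected CTCs were compared with EPCAM-negative CTCs of the same mice. EPCAM (ENSG00000119888), on the plus strand of chromosome 2 of GRCh38 from 47345158 to 47387601, had a value above 0 in 8 of 37 CTCs and a value of 0 in the other 29. The cells were chosen by this EPCAM value, so the EPCAM values are given as a description and no test was made on them. EPCAM encodes a membrane glycoprotein that joins neighbouring cells of simple epithelia. It binds CLDN7 and is kept stable by SPINT2, and proteases of the ADAM and BACE families can cut it and free an intracellular domain that acts with FHL2, CTNNB1 and LEF1 on genes such as MYC and the cyclins. Its RNA falls during epithelial-mesenchymal transition (EMT), and antibodies to EPCAM are widely used to capture CTCs.

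Every CTC was a cell of the MDA-MB-231-LM2 (LM2) line, a lung-tropic derivative of a human triple-negative breast cancer line. GFP-labelled LM2 cells were injected into the mammary fat pad of NOD/SCID gamma mice, which lack mature lymphocytes, and the CTCs were enriched from blood by size, checked for the absence of CD45 and picked one at a time by their GFP. EPCAM was thus not used to choose which cells were picked. Values were analyzed for CTCs of 5 mice and for 6 cells of the same line grown in culture, and each library held 1 cell read by SMARTseq2, a full-length method without molecular identifiers. All libraries carried 1 batch label, and 4 further CTC libraries in the labels had no values in the table. The mouse was taken as the replicate in the main tests of genes, since CTCs of a mouse share their source. Nothing in the sources used here says whether the mice were injected together.

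EPCAM-detected CTCs came from 4 of the 5 mice. Mouse 5542 gave 2 of its 4 CTCs, mouse 5545 gave 2 of 10, mouse 5546 gave 3 of 17, mouse 5549 gave 1 of 4 and mouse 5541 gave 0 of 2. Library names of mouse 5546 held either a c (9 libraries) or an s (8 libraries), and the sources used here give no meaning for these letters. All 3 EPCAM-detected CTCs of this mouse were among the 9 with the letter c (exact 95% binomial interval 7.49% to 70.1%), against 0 of 8 with the letter s (0% to 36.9%). These intervals cover counting error only.

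EPCAM values, given as normalized counts (reads scaled by a factor that corrects for each cell's depth), covered a wide range. They were 28.7 in CTC 5542-1 and 27.7 in CTC 5542-2. They were 72.1 in CTC 5545-1, the highest value, and 8.95 in CTC 5545-10. In the 3 CTCs of mouse 5546 they were 4.54, 22.4 and 40.2. The lowest value just inside the threshold was 0.464, in CTC 5549-5, and came from a single read, whereas the other 7 CTCs held 14 to 91 reads of EPCAM. In the 29 EPCAM-negative CTCs no read was counted, where 3 reads would be a value of 1.20 to 6.36 depending on the cell. This limit covers the sampling of reads only, and RNA lost before sequencing could leave a higher level unseen. Among cultured LM2 cells, 5 of 6 had EPCAM, at 15.4 to 139. Of the 8 EPCAM-detected CTCs, 5 lay within that range and 3 below it.

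**Figure D1:**
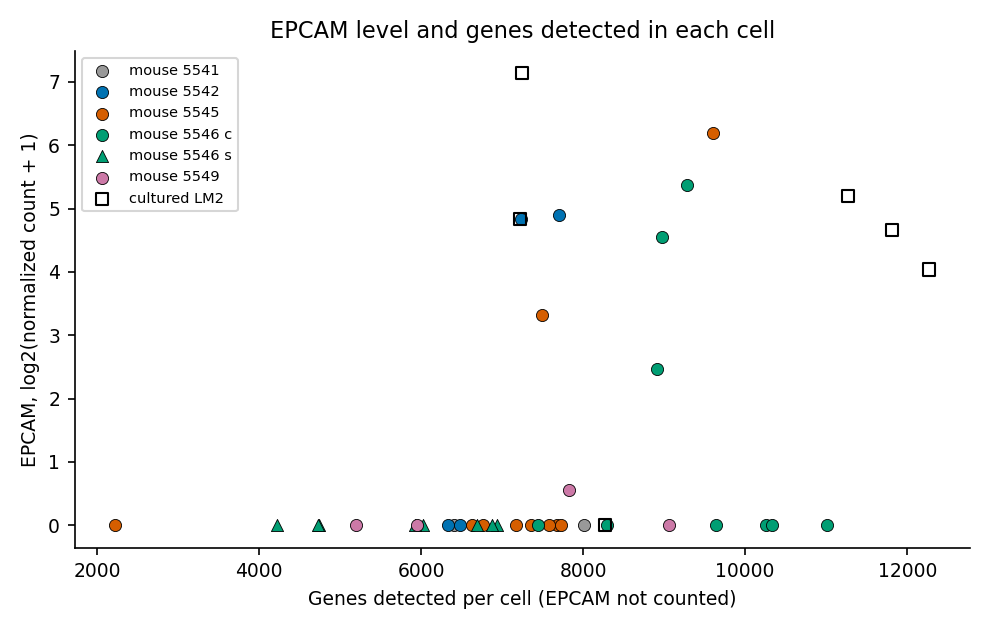
EPCAM value of each cell on the log2(normalized count + 1) scale against the number of genes detected in it, with EPCAM not counted. Circles and triangles are CTCs colored by mouse, triangles are the libraries of mouse 5546 with the letter s, and open squares are cultured LM2 cells. All 8 EPCAM-detected CTCs lay at 7236 genes or more, where 12 EPCAM-negative CTCs also lay.

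EPCAM-detected CTCs had more genes detected on average. They held 7236 to 9601 genes (median 8366.5), against 2227 to 11010 (median 6880) in EPCAM-negative CTCs, so the ranges overlapped. EPCAM was found in 8 of the 20 CTCs with at least 7236 genes, where 7236 is the number in the lowest EPCAM-detected CTC, so that none could lie below it. Within mice, the mean of the EPCAM-detected CTCs exceeded that of the EPCAM-negative CTCs by 1065 genes in mouse 5542, 1906 in mouse 5545, 1688 in mouse 5546 and 1089 in mouse 5549. The mean difference was 1437 ± 425 genes (SD, n = 4 mice). A two-sided exact permutation test over all 734400 exchanges of EPCAM status among the CTCs of each mouse gave p = 0.0371. Adjusted over the 3 measures tested by exact permutation, this was p = 0.0557. In each of these permutation tests the single CTC is the unit. Their p-values treat the CTCs of a mouse as independent and do not measure the spread between mice. When CTCs were exchanged only within mouse and library letter, the difference was 905 genes with an exact p = 0.220. Without mouse 5542, 5545 or 5546 the exact p was 0.0651, 0.107 and 0.110. The groups were set by detection of EPCAM, and any gene is more easily detected in a CTC with more genes detected. Whether this difference is particular to EPCAM was not tested, since no other gene with a like detection rate was examined.

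Reads on genes, the depth behind these values, were also higher in EPCAM-detected CTCs. They ranged from 831683 to 1890720, against 469614 to 2041333 in EPCAM-negative CTCs, and the means were higher in 4 of 4 mice, by 50425 to 632731 reads (exact permutation p = 0.0270, adjusted p = 0.0557). Neither measure thus had an adjusted p under 0.05. Without mouse 5545 or 5549 the exact p for reads was 0.150 and 0.0729. With each CTC thinned to 469614 reads, the difference in genes detected was 1218 genes (exact permutation p = 0.0412). At that depth EPCAM was still found in a mean of 7.21 CTCs over 100 random draws.

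The share of reads on mitochondrial genes did not differ beyond the spread between CTCs. It was 4.59% to 8.96% in EPCAM-detected CTCs and 4.28% to 23.9% in EPCAM-negative CTCs, and the mean difference was -1.46 ± 3.21 percentage points (SD, n = 4 mice) with an exact permutation p = 0.335. It was above 0 in 2 mice and below 0 in the other two.

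Reads counted on human blood genes were a small share in both groups. Alignment was to the human genome alone, whereas the blood came from mice, so the amount of mouse blood RNA is not known. Erythroid, platelet, neutrophil and leukocyte genes together held 0.000584% to 0.383% of the reads of EPCAM-detected CTCs and 0.000154% to 1.68% of those of EPCAM-negative CTCs. Reads of HBB, a hemoglobin gene that breast cells are not known for, were found in 8 of 8 and 27 of 29 CTCs and in 0 of 6 cultured cells. The HBB value was 1.58 to 2964 (median 646) in EPCAM-detected CTCs and 0 to 12138 (median 1176) in EPCAM-negative CTCs. Of the 9 erythroid genes listed, 5 could be tested and all 5 had differences below 0, while 64.8% of all genes had one above 0, with a median log2 difference of -1.13. The median was -0.73 without CTC 5549-6 and -0.28 with matched CTCs. HBA1 had no row in the table. SLC4A1, AHSP and CA1 had 0 in all EPCAM-detected CTCs, so any of them among the 5 tested could lie only below 0 and adds nothing to the common direction. PTPRC, which encodes CD45, was found in 2 of 8 and 9 of 29 CTCs. The 6 platelet genes were each found in at most 1 EPCAM-detected CTC, and too few CTCs held them for a test. Neither the part of blood RNA in the differences described below nor the species of origin of the HBB reads was tested.

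**Figure D2:**
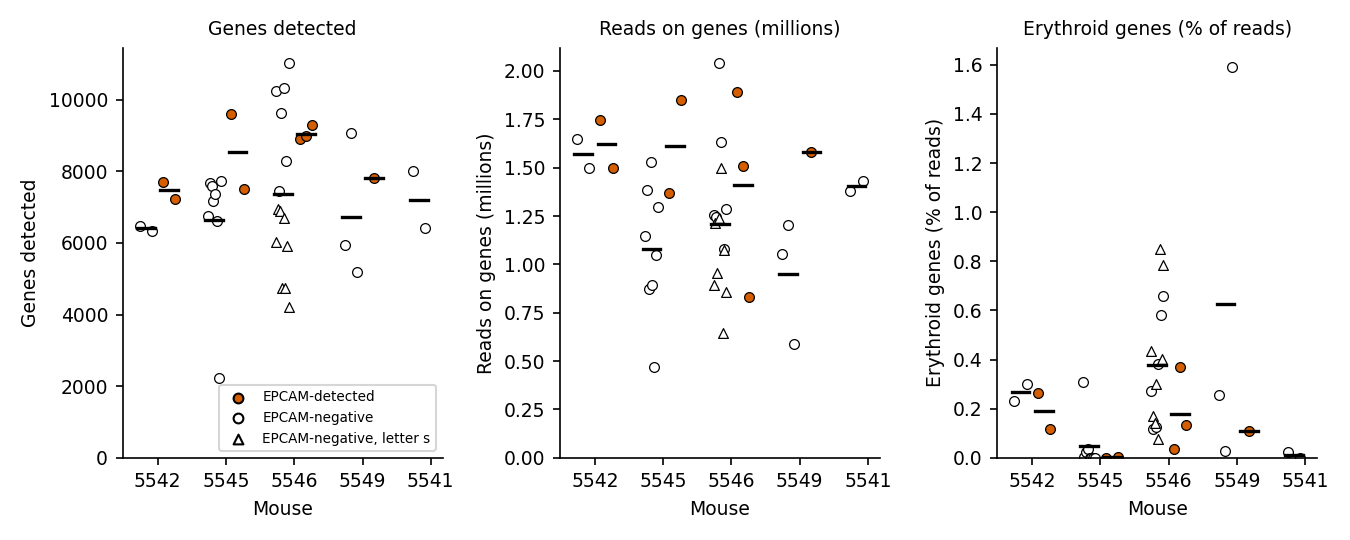
Genes detected, reads on genes and the share of reads on erythroid genes in each CTC, by mouse. Filled points are EPCAM-detected CTCs, open points are EPCAM-negative CTCs, triangles are libraries of mouse 5546 with the letter s, and bars are means; genes and reads have higher means for EPCAM-detected CTCs in all 4 mice that hold both.

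Across all other genes, no gene passed the test between EPCAM-detected and EPCAM-negative CTCs. For each mouse, the mean of log2(normalized count + 1) over its EPCAM-negative CTCs was subtracted from the mean over its EPCAM-detected CTCs, and the differences of the 4 mice were tested with limma. Mouse 5541 had no EPCAM-detected CTC and did not enter the fit. The error given with each log2 difference is limma's moderated SE, which draws on the spread of all genes as well as on that of the 4 mice. Of 13585 genes detected in at least 5 CTCs, 0 (0%) had an adjusted p under 0.05, and the lowest adjusted p was 0.604. On summed reads, edgeR called 26 genes, all lower, and DESeq2 called 10 higher and 51 lower. At an unadjusted limma p under 0.05, 931 genes (6.85%) were higher and 174 (1.28%) lower in EPCAM-detected CTCs. In this fit 64.8% of all genes had a difference above 0 and the median over all genes was 0.27. The direction turned in other fits, with a median of -0.09 from the log2 of mean values, -0.41 in edgeR and -0.27 in DESeq2. At an unadjusted p under 0.05, edgeR then had 74 genes higher and 362 lower, and DESeq2 265 and 681. Differences of at least 2 on the log2 scale with the same sign in all 4 mice, called large differences here, were found for 438 genes (3.22%) above 0 and 8 (0.0589%) below 0.

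With CTCs matched on genes detected, the limma differences were centered near 0. Each EPCAM-detected CTC was paired with an EPCAM-negative CTC of its mouse, without reuse, so that the summed difference in log2 genes detected was smallest. A partner was thus not always the single closest CTC. Mouse 5542 had only 2 EPCAM-negative CTCs and both were used, so its matched difference is the same as its unmatched one. The paired EPCAM-detected CTCs held between 13.6% fewer and 24.2% more genes than their partners, and more in 4 of 8 pairs. Then 49.3% of all genes had a difference above 0 and the median was -0.01. Large differences were found for 92 genes (0.677%) above 0 and 79 (0.582%) below 0. Again 0 genes had an adjusted limma p under 0.05, with 267 genes (1.97%) higher and 222 (1.63%) lower at an unadjusted p under 0.05. Since the matched comparison uses the same EPCAM-detected CTCs, it is not an independent repeat of the first.

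**Figure D3:**
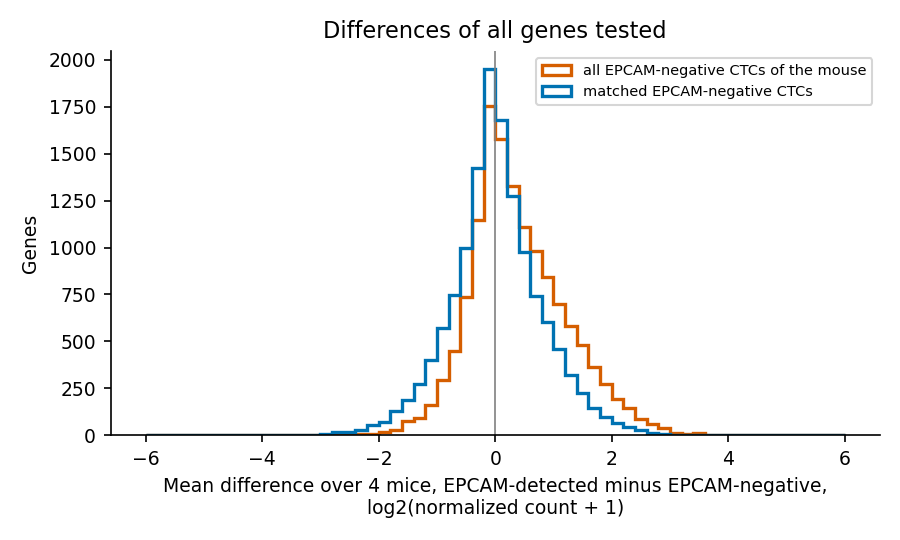
Histogram of the mean difference over 4 mice of each of the 13585 genes tested, EPCAM-detected minus EPCAM-negative, on the log2(normalized count + 1) scale in steps of 0.2. Against all EPCAM-negative CTCs of the mouse the distribution has a longer side above 0, with a median of 0.27, and against matched CTCs it is centered near 0, with a median of -0.01.

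Among genes whose products bind, stabilize or cut EPCAM, CLDN7 and SPINT2 stood above 0 in both comparisons. CLDN7 (ENSG00000181885, chromosome 17, 7259903 to 7263983, minus strand), the tight junction protein that EPCAM binds directly, was found in 8 of 8 EPCAM-detected CTCs and in 17 of 29 EPCAM-negative CTCs. Its normalized count was 5.57 to 46.7 (median 21.7) in EPCAM-detected CTCs and 0 to 272 (median 4.2) in EPCAM-negative CTCs. The EPCAM-detected CTCs were thus never at 0, but the highest values belonged to EPCAM-negative CTCs and the groups overlapped. The log2 difference was 1.65 ± 0.82 (SE, limma p = 0.0702), above 0 in 4 of 4 mice, and 1.66 ± 0.70 with matched CTCs (limma p = 0.0521). The gene overlaps ELP5 on the other strand, and counting ignored strand. Computed from summed reads or from the mean of the values before the log, the CLDN7 difference turned to between -0.02 and -0.16.

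SPINT2 (ENSG00000167642, chromosome 19, 38244035 to 38292615, plus strand), a protease inhibitor that protects EPCAM and CLDN7 from cleavage, had 42.1 to 777 (median 113) in EPCAM-detected CTCs and 0 to 792 (median 101) in EPCAM-negative CTCs. Here the medians were close, and values below 42.1 were found in EPCAM-negative CTCs alone. SPINT2 overlaps PPP1R14A on the other strand. The log2 difference was 2.04 ± 0.75 (SE, limma p = 0.0203) and 1.97 ± 0.64 with matched CTCs (limma p = 0.0203), above 0 in 4 of 4 mice and in 5 of 8 matched pairs. It was 4.85 in mouse 5549 alone, against 0.79 to 1.49 in the other 3 mice.

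The remaining genes of this group showed no common direction. Of its 16 members 13 could be tested, 7 (53.8%) had a difference above 0, against 64.8% of all genes, and 6 (46.2%) with matched CTCs, against 49.3%. An unadjusted limma p under 0.05 was found for 2, SPINT2 among them, against 6.85% of all genes in this direction. BACE1, a protease that cuts EPCAM at its base, was found in 6 of 8 against 11 of 29 CTCs, with a log2 difference of 2.11 ± 0.99 and 2.48 ± 0.92 with matched CTCs. BACE1 overlaps RNF214 and CEP164, whose reads could not be told apart. CD9 and CD44, which are membrane partners of EPCAM, were found in 8 of 8 EPCAM-detected CTCs and in 28 and 29 of 29 EPCAM-negative CTCs. CD44 had a median of 274 in the first and 359 in the second. TSPAN8, a tetraspanin partner, had no read in any CTC. ST14, a protease that cuts EPCAM, was found in 1 CTC, which was EPCAM-detected. EPCAM-DT, the transcript that starts next to EPCAM in the other direction, was found in 0 of 8 and 1 of 29 CTCs.

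Genes known to respond to the freed EPCAM domain had no common direction. The 5 genes were MYC, CCND1, CCNA2, CCNE1 and CCNE2, of which 3 had a difference above 0 and 2 with matched CTCs. CCNA2, a cyclin of S phase and G2, had the only unadjusted limma p under 0.05, with 0 to 232 (median 59.5) in EPCAM-detected CTCs, 0 to 296 (median 1.68) in EPCAM-negative CTCs and a log2 difference of 2.26 ± 0.96. With matched CTCs it was -0.17 ± 0.72. CCNA2 overlaps EXOSC9. CCND1, the cyclin of G1, was found in 8 of 8 and 28 of 29 CTCs, with medians of 531 and 355.

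Epithelial genes were above 0 more often than genes in general, with and without matching. Of 30 epithelial genes 15 could be tested, 13 of them (86.7%) had a difference above 0 against 64.8% of all genes, and with matched CTCs 14 of 15 (93.3%) against 49.3%. The median log2 difference was 0.93, against 0.27 for all genes, and 1.05 against -0.01 with matched CTCs. It stayed above the median of all genes under each of the 31 other settings, by 0.15 to 1.69. The smallest of these was without CTC 5545-1, the CTC with the highest EPCAM value, where the list stood at 0.27 and all genes at 0.12. By mouse the list median was 1.04 in mouse 5542, 1.62 in mouse 5545, 0.35 in mouse 5546 and 1.19 in mouse 5549. The median of all genes was 0, 0.37, 0.43 and 0 in the same order, so the list stood below it in mouse 5546. At an unadjusted limma p under 0.05, 3 epithelial genes were higher (KRT19, DSP and MARVELD2), against 6.85% of all genes. In the other direction 0 were lower, against 1.28% of all genes, and no epithelial gene passed the adjusted test. CLDN7 is also a member of this list. As a share of reads, the 28 of the 30 genes that had values together held a mean of 0.297% in EPCAM-detected and 0.302% in EPCAM-negative CTCs. Their summed normalized count had a median of 1937 in the first and 2017 in the second.

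KRT19, a keratin of simple epithelia, was at 51.2 to 2745 (median 153) in EPCAM-detected CTCs and at 0 to 2047 (median 92.5) in EPCAM-negative CTCs. CTC 5545-1, which had the highest EPCAM value, also had the highest KRT19 value of all CTCs. The log2 difference of KRT19 was 1.78 ± 0.52 (SE, limma p = 0.0061) and 1.78 ± 0.67 with matched CTCs (limma p = 0.0363), above 0 in 4 of 4 mice and in 6 of 8 pairs. DSP, which anchors keratins at desmosomes, was found in 7 of 8 against 14 of 29 CTCs and had a log2 difference of 2.03 ± 0.86, and 1.27 ± 0.81 with matched CTCs. MARVELD2, a protein of tight junctions where 3 cells meet, was found in 4 of 8 against 6 of 29 CTCs, with a log2 difference of 1.10 ± 0.46, above 0 in 3 of 4 mice. KRT8 and KRT18 were found in every CTC of both groups, with medians of 438 and 909 in EPCAM-detected CTCs and 521 and 865 in EPCAM-negative CTCs. These genes overlap each other.

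The defining epithelial genes were nearly absent from EPCAM-detected CTCs. CDH1, which encodes E-cadherin, had no read in any of 8 EPCAM-detected CTCs and was found in 1 of 29 EPCAM-negative CTCs. In 8 CTCs this allows a share of CTCs with a read of up to 36.9% (exact 95% binomial interval). ESRP1, a splicing regulator of epithelial cells, was found in 0 of 8 and 2 of 29, and ELF3, an epithelial transcription factor, in 0 of 8 and 3 of 29. GRHL2, OVOL1 and OVOL2 had no row in the table. Of 14 epithelial regulators 6 could be tested, with a median log2 difference of 0.12 and, matched, -0.41. In the first comparison 0 had an unadjusted p under 0.05, and with matched CTCs 1 did, EHF, which was lower in EPCAM-detected CTCs and was found in 1 of 8 against 6 of 29. KLF4, a factor of differentiating epithelia, was found in 6 of 8 and 25 of 29 CTCs, with a log2 difference of -1.86 ± 0.96.

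Mesenchymal genes of the line were also found in EPCAM-detected CTCs. VIM, the mesenchymal intermediate filament, was at 5226 to 15505 (median 8254) in EPCAM-detected CTCs and at 2893 to 20688 (median 8214) in EPCAM-negative CTCs. Its log2 difference was -0.09 ± 0.35 (SE, limma p = 0.808) and -0.06 ± 0.30 with matched CTCs. Of 26 mesenchymal genes 21 could be tested, 11 (52.4%) had a difference above 0, against 64.8% of all genes, and 7 (33.3%) with matched CTCs, against 49.3%. The median was 0.04 and, matched, -0.30. AXL, a receptor kinase linked to EMT, had the only unadjusted limma p under 0.05, with 483 to 6232 (median 2552) in EPCAM-detected CTCs, 4.85 to 5717 (median 934) in EPCAM-negative CTCs and a log2 difference of 1.36 ± 0.53. It was 0.77 ± 0.62 with matched CTCs. Among 5 testable EMT transcription factors 0 had an unadjusted p under 0.05, and ZEB1, which represses epithelial genes, was found in 8 of 8 and 25 of 29 CTCs, with medians of 15.4 and 34.8.

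Of 7 other surface markers or candidate markers of CTCs 5 (71.4%) had a difference above 0 in both comparisons, against 64.8% and 49.3% of all genes. Of the 7, 0 had an unadjusted p under 0.05. Their median was 0.53, and 0.10 without the libraries of mouse 5546 with the letter s. EGFR was found in 8 of 8 and 25 of 29 CTCs, with medians of 22.9 and 19.1. ERBB2, which encodes HER2, was found in 3 of 8 and 14 of 29. AHNAK2 was found in 8 of 8 and 21 of 29, CAVIN1 in 8 of 8 and 28 of 29, ODR4 and TRIML2 each in 7 of 8 and 20 of 29, and S100A16 in 8 of 8 and 28 of 29. The paper drew AHNAK2, CAVIN1, ODR4, TRIML2, S100A16 and EGFR from these same CTCs by level and by share of CTCs. Their wide detection here was thus set in advance in part. S100A16 was a candidate that the paper later dropped because it stained blood cells. Of the 12 genes linked to stemness 7 could be tested, with a median of 0.42 and, matched, -0.44, and 0 had an unadjusted p under 0.05.

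**Figure D4:**
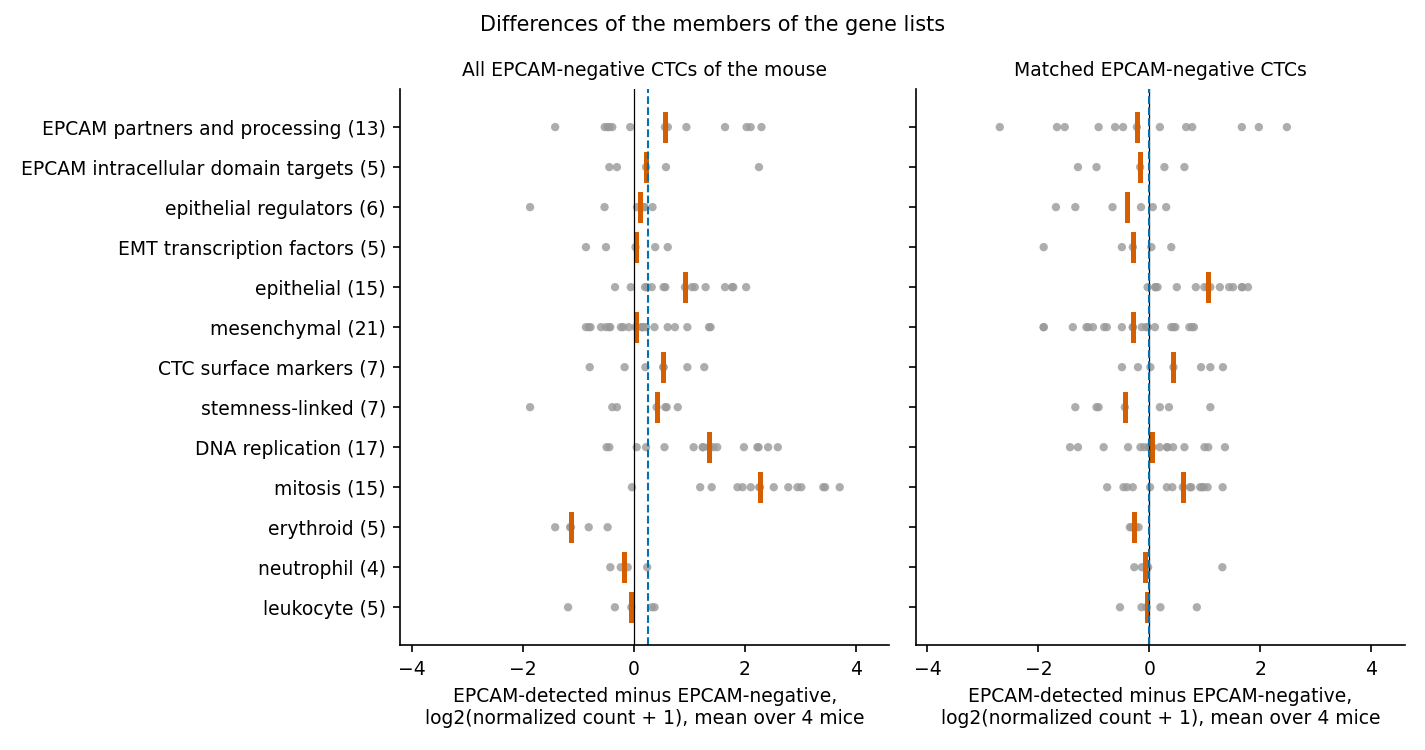
Log2 differences of the testable members of each gene list (number in brackets), EPCAM-detected minus EPCAM-negative, as means over 4 mice. Grey points are genes, orange bars are list medians and the dashed line is the median of all genes; the epithelial list stands at 0.93 and 1.05, and the mitosis list at 2.28 against all EPCAM-negative CTCs and 0.60 against matched ones.

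Of the gene lists, the mitosis genes had the highest median difference, which was lower when genes detected were taken into account. Of 15 mitosis genes all could be tested, 14 (93.3%) had a difference above 0 and 11 had an unadjusted limma p under 0.05 in that direction, against 6.85% of all genes. The median log2 difference was 2.28, against 0.27 for all genes. With matched CTCs the median was 0.60, against -0.01 for all genes, 11 of 15 were above 0 and 0 had an unadjusted p under 0.05. Other ways to take genes detected into account left more of it. The median was 1.55 against all EPCAM-negative CTCs of the mouse within 25% of the genes detected, and 1.5 with genes detected as a term in a fit of single CTCs. By mouse the median was 0.25 in mouse 5542, 2.53 in mouse 5545, 4.01 in mouse 5546 and 2.29 in mouse 5549. It was 1.83 without the libraries of mouse 5546 with the letter s, 1.54 without CTC 5542-4 and -0.07 with matched CTCs when mouse 5546 was left out.

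Single mitosis genes showed both the size of this difference and the overlap. AURKB, a kinase of chromosome segregation, was at 0 to 579 (median 254) in EPCAM-detected CTCs and at 0 to 734 (median 2.62) in EPCAM-negative CTCs. Its log2 difference was 3.72 ± 0.88 (SE, limma p = 0.00154) and 0.75 ± 0.79 with matched CTCs. BIRC5, which encodes survivin, was at 0 to 1032 (median 321) and 0 to 903 (median 34), with a log2 difference of 3.42 ± 0.77 (limma p = 0.00115) and 1.32 ± 0.58 with matched CTCs, and it was higher in 7 of 8 pairs and equal in 1. CDK1, the kinase that starts mitosis, was at 0 to 716 (median 238) and 0 to 848 (median 2.06), with a log2 difference of 3.45 ± 0.88 that was above 0 in 3 of 4 mice. MKI67, the proliferation antigen, was found in 8 of 8 and 18 of 29 CTCs. Without mouse 5542, AURKB and CDK1 were the only genes with an adjusted limma p under 0.05 (0.0296 for both).

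Counted per cell, at least 13 of the 15 mitosis genes were found in 7 of 8 EPCAM-detected CTCs, in 11 of 29 EPCAM-negative CTCs, in 6 of the 8 matched EPCAM-negative CTCs and in 5 of 6 cultured cells. At most 4 of them were found in 1 EPCAM-detected CTC, 5542-1, and in 9 EPCAM-negative CTCs. The 15 genes held 0.00457% of the reads of CTC 5542-1 and 0.346% to 0.903% of those of the other 7 EPCAM-detected CTCs. In EPCAM-negative CTCs the share was 0% to 0.935% (median 0.101%), and in cultured cells 0.0245% to 0.931% (median 0.655%). EPCAM was thus also found in a CTC with few mitosis genes, and EPCAM-negative CTCs spanned the whole range.

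DNA replication genes had a median difference of 1.36. All 17 could be tested, 15 (88.2%) had a difference above 0, against 64.8% of all genes, and 5 had an unadjusted limma p under 0.05 in that direction, against 6.85% of all genes. By mouse the median was -0.31 in mouse 5542, 1.49 in mouse 5545, 0.65 in mouse 5546 and 2.61 in mouse 5549. Without CTC 5542-4 the median was 0.56, and without mouse 5549 it was 0.75. With EPCAM-detected set at a value of at least 8, which drops mouse 5549 as well, it was 0.35, beside 0.36 for all genes. With matched CTCs 9 of 17 (52.9%) were above 0, against 49.3% of all genes, the median was 0.05 and 0 had an unadjusted p under 0.05. The median was 0.96 against all EPCAM-negative CTCs within 25% of the genes detected and 0.62 with genes detected as a term. FEN1, the flap endonuclease, had 20.1 to 296 (median 190) in EPCAM-detected CTCs and 0 to 577 (median 31.9) in EPCAM-negative CTCs, with a log2 difference of 2.60 ± 0.65 and 0.43 ± 0.82 with matched CTCs. MCM3 and MCM5, subunits of the replicative helicase, had differences of 2.23 ± 0.69 and 2.25 ± 0.71, and 1.06 ± 0.80 and 0.99 ± 0.70 with matched CTCs. RRM2, which makes deoxynucleotides, had 2.42 ± 0.85 and 0.32 ± 0.77.

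The 10 genes with the lowest p above 0 were TPST2, CENPK, MAD2L1, TBL1XR1, ACOT7, STMN1, PTTG1, FUCA2, TRIM59 and BARD1. CENPK (a centromere protein), MAD2L1 (spindle checkpoint), STMN1 (a microtubule regulator), PTTG1 (securin) and BARD1 (the partner of BRCA1) act in cell division or DNA repair. Their log2 differences ran from 2.75 to 4.26, with unadjusted limma p of 0.000323 to 0.00105 and an adjusted p of 0.604 each. With matched CTCs all 10 were still above 0, at 1.08 to 2.84, and 4 had an unadjusted p under 0.05. TPST2 (chromosome 22, 26521996 to 26596717, minus strand), a Golgi enzyme that sulfates tyrosines, was at 25.6 to 232 (median 71.7) in EPCAM-detected CTCs and at 0 to 234 (median 2.80) in EPCAM-negative CTCs, of which 17 of 29 held it. Its difference was 4.26 ± 0.81 (SE, n = 4 mice), and 2.46 ± 1.25 with matched CTCs. TRIM59 overlaps SMC4 on the other strand, and ACOT7, FUCA2 and TBL1XR1 overlap noncoding genes, whose reads could not be told apart.

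Below 0, the 10 genes with the lowest p were IWS1, PKNOX1, H2BC15, CTC-338M12.4, FAM89A, TRIM4, ZNF787, FAM86C1P, C17orf67 and HAGLR. Of these, 8 had no read in any of the 8 EPCAM-detected CTCs and were found in 6 to 14 of the 29 EPCAM-negative CTCs. These 8 entered the test through the EPCAM-negative CTCs alone, so that they could lie only below 0, and their p-values and place in the order carry no weight. IWS1 (ENSG00000163166, chromosome 2, 127436207 to 127526886, minus strand), a factor of transcription elongation, was found in 2 of 8 against 21 of 29 CTCs and in 5 of 6 cultured cells. It was at 47.8 in CTC 5542-1, at 8.22 in CTC 5546-c7 and at 0 in the other 6 EPCAM-detected CTCs, and at 0 to 261 (median 10.6) in EPCAM-negative CTCs. The log2 difference was -3.26 ± 0.90 (SE, limma p = 0.00442) and -4.01 ± 0.82 with matched CTCs (limma p = 0.00221), below 0 in 4 of 4 mice and lower in 6 of 8 pairs. PKNOX1, a homeodomain partner of PBX proteins, was found in 0 of 8 against 14 of 29 CTCs and in 6 of 6 cultured cells. CTC-338M12.4 overlaps RACK1, and H2BC15 is 1 of many near-identical histone genes, so their counts are uncertain.

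By share of CTCs with a read, the 5 genes most in favor of EPCAM-detected CTCs were GPAM, DLG3, LSP1P4, RNASEH1-DT and FZD8. They are the extremes of 13585 genes, no test was made on the shares, and the shares take no account of genes detected per CTC. Their levels were low, with medians in EPCAM-detected CTCs of 2.02, 5.27, 1.98, 7.67 and 3.03 in that order. GPAM, an enzyme of triglyceride synthesis, was found in 8 of 8 against 7 of 29 CTCs, and DLG3, a scaffold protein at cell junctions, in 8 of 8 against 8 of 29. LSP1P4, a pseudogene, was found in 8 of 8 against 8 of 29, and FZD8, a Wnt receptor, and the noncoding RNASEH1-DT each in 7 of 8 against 5 of 29. In the other direction, SPEN, a transcriptional repressor, was found in 1 of 8 against 22 of 29, and ENSG00000270504 in 0 of 8 against 18 of 29. H3C12, a histone gene, and PKNOX1 were found in 0 of 8 against 15 and 14 of 29, and ACTC1, an actin gene, in 2 of 8 against 22 of 29. ENSG00000270504, H3C12 and PKNOX1 entered through the EPCAM-negative CTCs alone. They could lie only in this direction, so their place in the order carries no weight.

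The largest differences above 0 with matched CTCs were those of PBX3, SELENBP1, PHYHD1, MICAL1 and F2RL1, and each was of like size without matching. PBX3 (chromosome 9, 125747345 to 125967377, plus strand), a homeodomain transcription factor, was found in 7 of 8 against 13 of 29 CTCs. Its value was 0 in CTC 5545-10 and 8.40 to 70.5 in the other 7 EPCAM-detected CTCs, and 0 to 54.3 (median 0) in EPCAM-negative CTCs. The log2 difference was 3.57 ± 0.93 (SE, limma p = 0.00305) and 3.83 ± 0.97 with matched CTCs (limma p = 0.00661), and it was higher in 7 of 8 pairs and equal in 1. SELENBP1, a selenium-binding protein, was found in 5 of 8 against 4 of 29 CTCs and in none of the 8 matched EPCAM-negative CTCs. Its log2 differences were 3.14 ± 0.86 and 3.46 ± 0.56. SELENBP1 met the limit of at least 5 CTCs only through the EPCAM-detected CTCs, so its differences and place in the order carry no weight. PHYHD1 had 2.94 ± 1.01 and 3.40 ± 0.97. MICAL1, an enzyme that oxidizes actin, was found in 7 of 8 against 7 of 29 CTCs, with 2.49 ± 1.00 and 3.13 ± 0.77. F2RL1, a protease-activated receptor, had 2.99 ± 0.91 and 3.04 ± 1.17.

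The largest differences below 0 with matched CTCs were those of IWS1, CXCL2, SGK1, LMAN1 and CXCL3. SGK1, a kinase induced by stress and glucocorticoids, was at 0 to 45.7 (median 4.43) in EPCAM-detected CTCs and at 0 to 3135 (median 24.9) in EPCAM-negative CTCs, with log2 differences of -2.24 ± 0.88 and, matched, -3.62 ± 0.73, and was lower in 7 of 8 pairs. LMAN1, a receptor that carries glycoproteins from the endoplasmic reticulum, was found in 3 of 8 against 20 of 29 CTCs, with -2.81 ± 1.11 and, matched, -3.62 ± 1.06. CXCL2 and CXCL3, neutrophil-attracting chemokines, reached 519 and 11.0 in EPCAM-detected CTCs and 8050 and 2887 in EPCAM-negative CTCs, with log2 differences of -3.85 ± 1.11 and -3.59 ± 1.41 with matched CTCs. Against all EPCAM-negative CTCs of the mouse, their differences were large in mice 5542 and 5549 (-5.54 to -6.57) and between -0.02 and 1.33 in mice 5545 and 5546.

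A test on the reads summed over the CTCs of each mouse and status gave calls in 1 direction. With edgeR's quasi-likelihood test, 26 genes (0.191%) had an adjusted p under 0.05, all of them lower in EPCAM-detected CTCs. This test weights the CTCs with the highest values. CTC 5549-6 had the highest value among EPCAM-negative CTCs for 13 of the 26 genes and CTC 5542-4 for 6, and for 12 of the 26 a single CTC held over 50% of the summed values of all EPCAM-negative CTCs. Without CTC 5542-4 the test called 6 genes, and without CTC 5549-6 it called 15. The chemokine CXCL8 was found in 1 of 8 EPCAM-detected CTCs, at 17.4, and in 12 of 29 EPCAM-negative CTCs, and CTC 5542-4 alone held 81.3% of the summed values of the latter.

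NFKBIA and PAEP were called by edgeR with all CTCs and also without either of these CTCs; they were picked out after their values were seen. NFKBIA (ENSG00000100906, chromosome 14, 35401079 to 35404749, minus strand) encodes the inhibitor that holds NF-kB in the cytoplasm and is itself a target of NF-kB. It was at 20.7 to 337 (median 103) in EPCAM-detected CTCs and at 0 to 3482 (median 305) in EPCAM-negative CTCs, of which 13 lay above the highest EPCAM-detected CTC. Its log2 difference was -1.46 ± 0.58 (SE, limma p = 0.0287) and -2.34 ± 0.38 with matched CTCs (limma p = 0.00063), below 0 in 4 of 4 mice and lower in 8 of 8 matched pairs. In edgeR the log2 fold change was -3.17 (adjusted p = 7.49e-07), and -2.64 without CTC 5542-4 and -2.52 without CTC 5549-6. PAEP, a secreted glycoprotein of reproductive tissue, was found in 5 of 8 and 21 of 29 CTCs and in 0 of 6 cultured cells, with medians of 298 and 274 and highest values of 4301 and 11010. Its log2 difference in limma was -2.15 ± 1.18, below 0 in 3 of 4 mice. HSPA5, a chaperone of the endoplasmic reticulum that edgeR called as well, was found in 8 of 8 and 27 of 29 CTCs, with medians of 249 and 435.

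**Figure D5:**
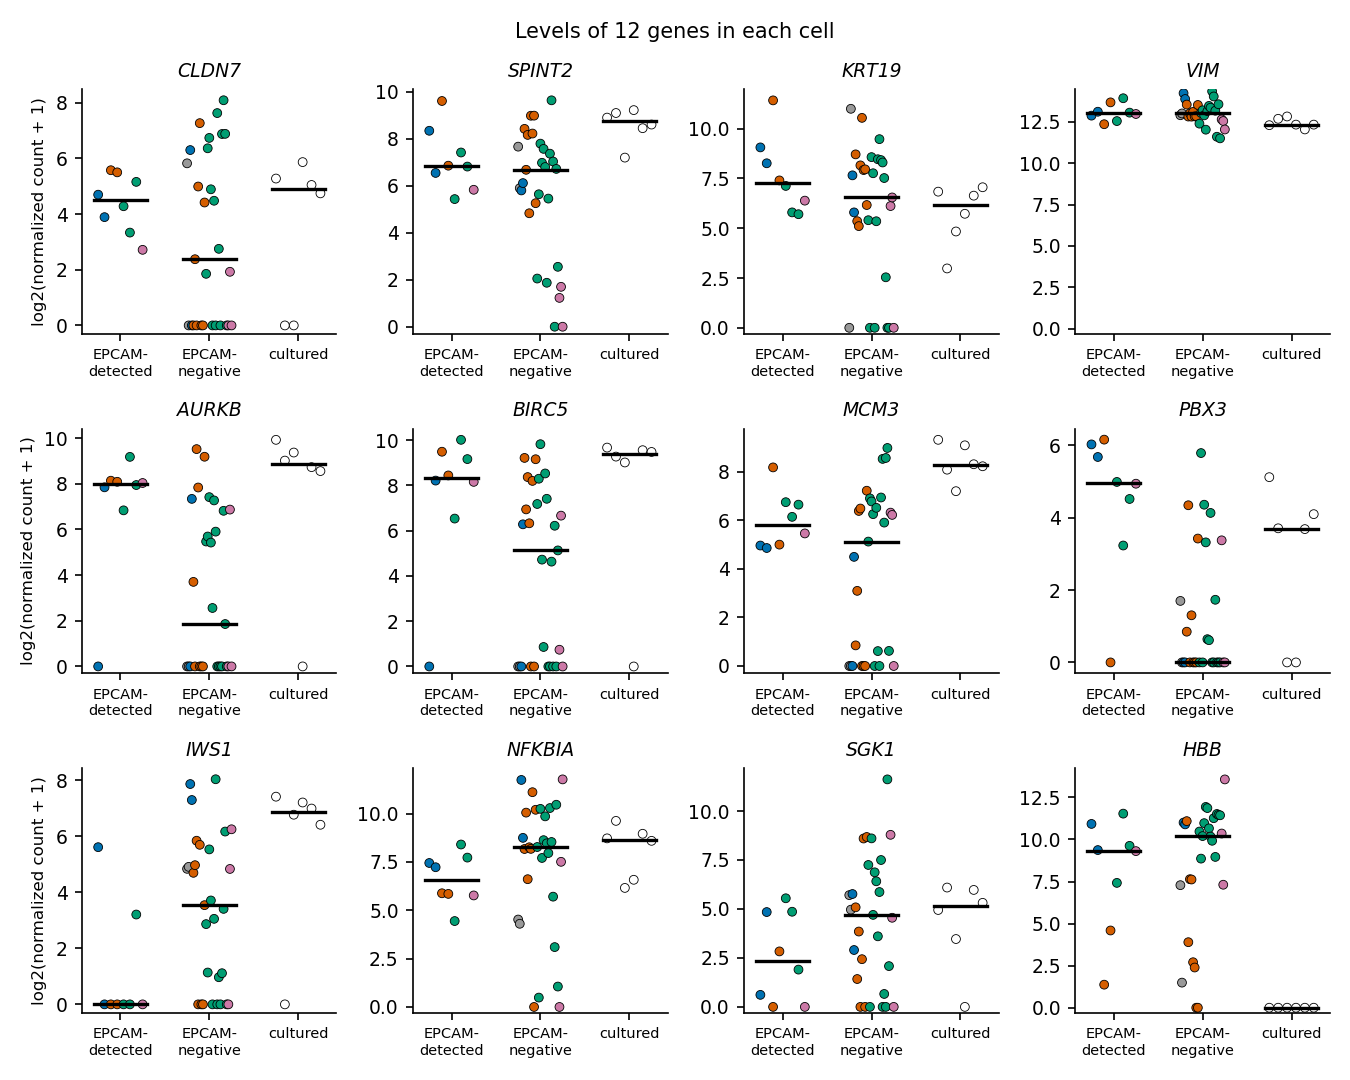
Values of 12 genes in each cell on the log2(normalized count + 1) scale, for EPCAM-detected CTCs, EPCAM-negative CTCs and cultured LM2 cells. Points are cells, colored by mouse for CTCs (blue 5542, orange 5545, green 5546, pink 5549, grey 5541) and white for culture, and bars are medians; the groups overlap for each gene, CLDN7 is above 0 in all 8 EPCAM-detected CTCs, and IWS1 is at 0 in 6 of them.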

How the data were processed

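Single-cell RNA-seq values of 37 CTCs and 6 cultured LM2 cells were used, with all 43 columns matched to the labels. The deposited values are a signal, reads per gene divided by a size factor of the cell. Per the study's methods and the labels, the authors aligned reads with STAR 2.7.10a to GRCh38 and the GENCODE annotation, kept unique alignments, ignored strand and normalized with DESeq2 1.42.1. Reads were recovered by taking the least value above 0 in a cell as 1 read, which gave whole reads for 100% of values (tolerance 0.001). Symbols matched 25590 of 25739 identifiers, and coordinates are from a GENCODE annotation of GRCh38. Genes detected were counted over 14594 genes found in at least 5 of 43 cells.

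The members and gene lists were chosen with earlier results of these data known. Named genes were EPCAM, the list members, the 10 genes with the lowest p in each direction, the 5 with the largest difference in share of CTCs and the 5 with the largest matched difference. Means of log2(value + 1) per mouse and EPCAM status (pseudocount 1) were tested with limma 3.58.1 with mouse as block and Benjamini-Hochberg adjustment over 13585 genes. Matched pairs minimized the summed difference in log2 genes detected. Single measures were tested by two-sided exact permutation of EPCAM status among the CTCs of each mouse, with the CTC as the unit. Alternatives used edgeR 4.0.16 and DESeq2 1.42.0 on recovered reads summed per mouse, each CTC as a unit, other pseudocounts, filters and scalings, and left out mice or CTCs. R 4.3.3 and Python 3.11.15 were used, and the fits were tested on simulated data. Some items are not reported here.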

Additional observations from a re-analysis of the deposited data

Results flagged for a closer look

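Of 17 groups of values examined for a cell far from the rest, 2 stood out, where chance gives about 1 in 20. Among the 6 cultured LM2 cells, the EPCAM value of LM-3 was 139, with the nearest other cell at 35.8, so that the upper end of the range of EPCAM in culture rests on this cell. Among the 8 EPCAM-negative CTCs of mouse 5545, CTC 5545-6 had 2227 genes detected, with the nearest at 6623, and it enters the mean of that mouse in each unmatched comparison.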

How the results depend on the processing

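With 4 mice, of which mouse 5549 gave 1 EPCAM-detected CTC with 1 read of EPCAM, the data limit what can be shown for single genes. The number of genes with an adjusted p under 0.05 was 0 to 2 with 1 mouse left out, 26 with edgeR on summed reads, 61 with DESeq2 (10 higher and 51 lower), and 0 in the other planned fits, matched ones included. Of the edgeR and DESeq2 calls 13 were shared, 50% of the first and 21.3% of the second. Added after seeing the data, edgeR gave 6 without CTC 5542-4 and 15 without CTC 5549-6, all lower. The 446 large differences became 1290 with a pseudocount of 0.1 and 17 with a pseudocount of 8. From the log2 of mean values there were 230 (92 higher and 138 lower). Without the libraries of mouse 5546 with the letter s there were 267 (245 higher and 22 lower). With 1 mouse left out there were 581 to 841, when only 3 mice need share a sign. With EPCAM-detected set at a value of at least 8 there were 696. There too only 3 mice need share a sign, as mouse 5549 then has no EPCAM-detected CTC. The median difference of all genes was 0.27 for the values as deposited, 0.29 when scaled to equal total reads, -0.09 from the log2 of mean values, -0.41 in edgeR and -0.27 in DESeq2. The list medians relative to it kept their sign for mitosis genes in all settings but 1, matched CTCs without mouse 5546 (-0.07).

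Genes detected differed by 1281 to 1561 with 1 mouse left out (exact permutation p of 0.0428 without mouse 5549 and up to 0.110 without mouse 5546), by 1381 with no filter on genes (exact p = 0.0654), by 905 with exchange within mouse and letter (exact p = 0.220) and by 1543 with the threshold of 8 (exact p = 0.0570). Reads on genes differed by 261048 to 455150 with 1 mouse left out (exact p up to 0.150, without mouse 5545), by 300128 within mouse and letter (exact p = 0.105) and by 165938 with the threshold of 8 (exact p = 0.299). Mitochondrial shares kept their direction. EPCAM-detected CTCs numbered 6 at a value of at least 8. At this threshold mouse 5549 had no EPCAM-detected CTC, so it does not enter the differences given for the threshold of 8.

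Signs turned for CLDN7 from the log2 of mean values (-0.021), in edgeR (-0.0867), in DESeq2 (-0.0436) and in edgeR without CTC 5549-6 (-0.16), for CCNA2 in edgeR (-0.0381), matched (-0.17) and in edgeR without CTC 5542-4 (-0.12) or CTC 5549-6 (-0.16), for MCM5 and MKI67 in edgeR without CTC 5542-4 (-0.0763 and -0.00468), and for VIM without CTC 5545-1 (0.0787) and with 1 mouse left out (-0.30 to 0.24, the latter without mouse 5542). The cause was not tested. In the other fits, named genes kept direction and side of the threshold 1320 times and kept direction with an adjusted p under 0.05 in 27. No paired analysis by replicate number was possible because the labels number no replicates across the groups, and the mouse was the block throughout.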
